A study of Mus musculus with 4 samples.

Results

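The genes described here encode the proteasome, its assembly factors and its activators in mouse muscle stem cells. They were taken as every row of the deposited table whose symbol begins with Psm, a letter from a to g and a digit, except Psmb8, Psmb9 and Psmb10, the subunits induced by interferon. The pattern found 44 of 11603 listed genes. Of these, 43 encode subunits, chaperones or regulators of the proteasome, and 1, Psmc3ip, encodes a factor of meiotic recombination that shares only the letters of the symbol. Psma8 and Psmb11, the subunits of the testis and the thymus, were not among the listed rows.

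The proteasome degrades proteins that carry ubiquitin. Its core particle is a barrel of alpha rings, which gate the entrance, around beta rings, which hold the proteolytic sites. A regulatory particle caps the barrel: in its base a ring of ATPases unfolds the substrate, and its lid removes the ubiquitin. Dedicated chaperones, which leave the finished particle, assemble the rings. Muscle stem cells are kept quiescent in adult muscle, and proteasome activity is known to be needed for their survival and activation.

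RNA was sequenced from muscle stem cells sorted from hindlimb muscle of C57BL/6 males at 4 to 5 months of age, with 2 libraries labelled control and 2 labelled conditional knockout of Hairless, a gene for a nuclear corepressor. Sorting kept cells with VCAM1 and without CD31, CD45 or Sca1. The sources used here do not give the Cre driver, the deleted exons or the genotype of the controls, nor do they say whether each library is a separate animal, so a p-value here measures only the spread between these libraries, which may be technical. Values are RPKM, reads scaled by exon length and library size, and are given as control 1 and control 2 and then knockout 1 and knockout 2.

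The table held 21757211 to 34101213 reads per library on the listed genes, and the members had at least 53 reads in every library. Hr, the targeted gene, had 9.28 and 8.94 RPKM in the controls and 7.15 and 7.90 RPKM in the knockouts, a log2 difference of -0.26 (limma adjusted p of 0.431), so its transcript was lower in both libraries labelled knockout but not lost. Of 10 stem cell markers all were listed, among them Pax7 with 8.23 and 12.9 RPKM in the controls and 9.03 and 13.1 RPKM in the knockouts. Of these markers 4 had both knockout values above both controls and 1 had them below, beside 25.0% and 26.2% of all genes, and 5 overlapped. Sdc4 stood at a log2 difference of 0.78, Cd34 at 0.59, Myf5 at 0.44 and Chodl at 0.34. Of all genes with a mean of at least 300 RPKM, the range of Sdc4 and Chodl, 76.3% were above. Itga7 stood at -0.89, with means of 105 ± 19.5 RPKM in the controls and 55.9 ± 8.40 RPKM in the knockouts (SD, n = 2). By limma 0 of the stem cell markers passed the adjusted test. At an unadjusted p under 0.05 by limma 3 were higher and 1 lower, beside 10.3% and 7.69% of all genes. In the authors' deposited table Itga7 and Sdc4 had q-values of 0.00849 and 0.00280. Of 12 muscle fibre markers 10 were listed, with summed levels of 190.2 and 773 RPKM in the controls and 77.9 and 70.7 RPKM in the knockouts. The sum thus stood highest in control 2 and was also higher in control 1 than in both knockouts. Most of it in the controls was Acta1, with 144 and 455 RPKM there and 36.5 and 31.9 RPKM in the knockouts. Of these 10 fibre markers 7 had both knockout values below both controls, beside 26.2% of all genes, and 3 overlapped. By limma 0 of them passed the adjusted test and 3 were lower at an unadjusted p under 0.05, beside 7.69% of all genes. An authors' deposited q-value under 0.05 was found for 8 of them, beside 4.26% of all genes with such a q-value and a lower knockout mean. The summed levels of 8 listed endothelial markers of 8 ranged from 50.7 to 63.7 RPKM in control and from 38.8 to 64.9 RPKM in knockout. Those of 7 listed blood markers of 10 ranged from 40.9 to 51.1 RPKM and from 32.4 to 102 RPKM, and Ptprc, which encodes CD45, was at or below 0.0399 RPKM in every library. The haemoglobin gene Hbb-bs had 15.5 and 12.0 RPKM in the controls and 4.35 and 58.8 RPKM in the knockouts, most of the sum in knockout 2. The sums of 6 listed fibro-adipogenic markers of 8 ranged from 548 to 565 RPKM and from 396 to 664 RPKM, without Pdgfra among the listed rows. Among these, Ly6a, the gene of the Sca1 antigen that the sort excluded, had 47.9 and 49.5 RPKM in the controls and 77.4 and 80.7 RPKM in the knockouts (log2 difference of 0.69, limma adjusted p 0.152), and Col3a1 had 294 and 323 RPKM and 204 and 96.1 RPKM (log2 difference of -1.14, limma adjusted p 0.208). The authors' deposited q-values were 0.404 for Ly6a and 0.0225 for Col3a1. The sums of 6 listed glial and mural markers of 8 ranged from 32.8 to 34.5 RPKM and from 20.3 to 46.2 RPKM. The part of these cells in the results below was not tested.

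Most proteasome genes had slightly more RNA in the knockout libraries than in the control libraries on the authors' scale, and no single member passed the limma test of genotype. The median log2 fold change of the 44 members was 0.20, against -0.01 over all 11603 genes, and 34 members were on the positive side and 10 on the negative side. Over all genes 48.2% were on the positive side. That share rose with level, from 37.7% at 1 to 5 RPKM to 78.1% at 50 to 100 RPKM and 81.5% at 100 to 300 RPKM. In these bulk libraries a change in the share of some cells and a change in RNA per cell cannot be told apart. Both knockout values lay above both control values in 23 members and below them in 2, where over all genes this was so for 25.0% and 26.2% of genes. Over all genes the share above rose with level, from 15.8% at 1 to 5 RPKM to 59.4% at 100 to 300 RPKM. The limma test over all genes called 0 members higher and 0 lower at an adjusted p of 0.05, with a background of 0.0% of all genes higher and 0.00862% lower, and the members' adjusted p values ran from 0.162 to 0.995. At an unadjusted p of 0.05 it counted 8 members higher and 0 lower, beside 10.3% and 7.69% of all genes. The share of all genes counted higher rose with level, from 4.84% at 1 to 5 RPKM and 8.49% at 5 to 20 RPKM. It was 14.5% at 20 to 50 RPKM, 26.3% at 50 to 100 RPKM and 34.8% at 100 to 300 RPKM. Those 3 ranges held 10, 13 and 13 of the members. With limma-voom on reads recovered from the RPKM the counts after adjustment were again 0 and 0, beside 0.0259% and 0.0689% of all genes, and 7 members were higher at the unadjusted p. Psmb4 was the 1 member that in the authors' deposited table had a q-value under 0.05 (0.0364), beside 3.59% of all genes with such a q-value and a higher knockout mean and 4.26% with a lower one, and the next lowest was 0.125 for Psmb2. Leaving out 1 library moved the count at the unadjusted p from 8 to 3 without control 2 or knockout 2, to 4 without control 1 and to 6 without knockout 1.

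The direction depended on how libraries were scaled. The authors divided by library sizes that were 85.9% and 92.4% of the listed reads in control and 75.7% and 75.5% in knockout. Scaling by the listed reads instead moved the median of all genes by -0.20 and that of the members to -0.04, with 21 members positive and 23 negative. Of all genes 26.3% were positive on that scale, beside 48.2% on the authors' scale. Relative to the median of all genes the members stood 0.21 higher on the authors' scale and 0.17 higher on that of listed reads. As a share of all RPKM in a library, the members made up 0.726% and 0.735% in control and 0.717% and 0.644% in knockout, so by that measure both knockout libraries lay below both control libraries. As a share of the listed reads they made up 0.554% and 0.559% in control and 0.577% and 0.527% in knockout, and the groups overlapped. Genes with a mean of at least 300 RPKM, none of them a proteasome gene, took 49.9% and 48.2% of all RPKM in control and 54.9% and 56.5% in knockout.

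**Figure D1:**
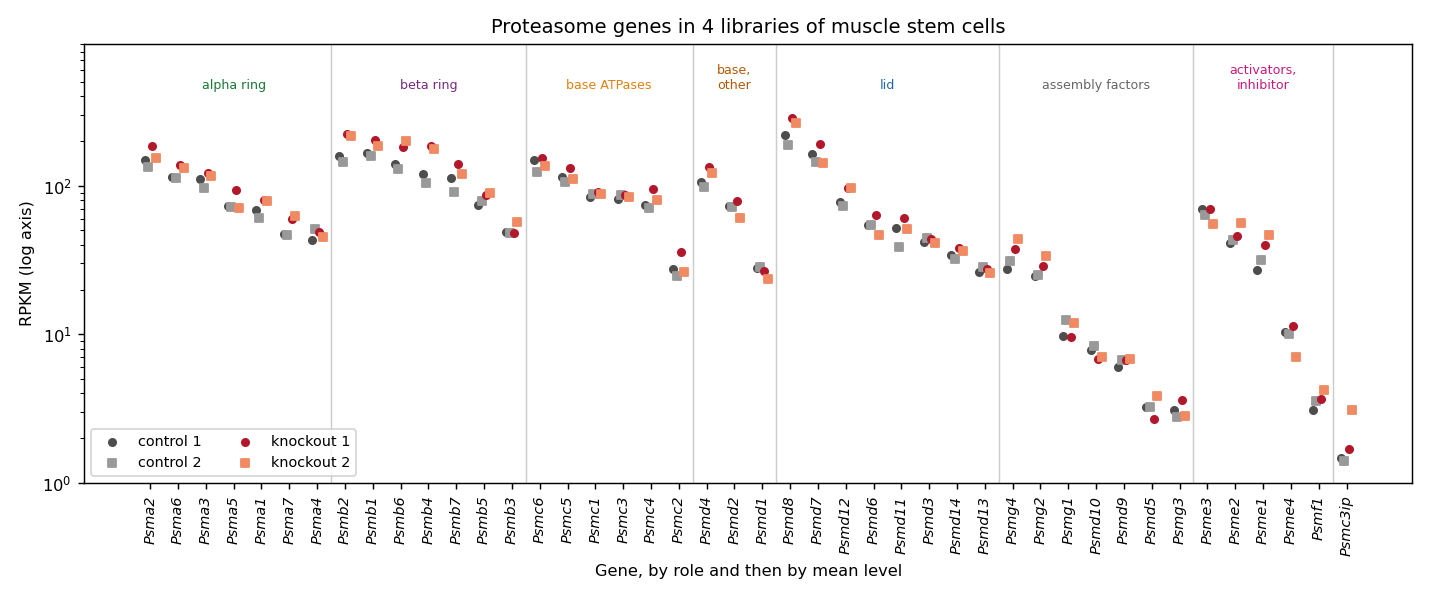
RPKM of the 44 genes (log axis) in each of the 4 libraries, by role and then by mean level; circles and squares are replicates 1 and 2, grey control and red or orange knockout. Core and regulatory particle genes lie between 23.4 and 287 RPKM, the base chaperones and most assembly factors lie lower, and in the beta ring 6 of 7 genes have both knockout points above both control points. Of all genes at 100 to 300 RPKM 59.4% do.

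The beta ring, which carries the proteolytic sites, had the largest group median, a log2 fold change of 0.36 over 7 genes. All 7 were on the positive side, 6 had knockout values that did not overlap the control values, and 3 had an unadjusted p under 0.05. The group's median level lay at 100 to 300 RPKM, where 81.5% of all genes were positive. In that range 59.4% had both knockout values above both controls and 34.8% were higher at an unadjusted p under 0.05. Over all levels these shares were 48.2%, 25.0% and 10.3%. Psmb4, a structural beta subunit (chromosome 3, 94884093 to 94886961, mm10), had control values of 121 and 105 RPKM and knockout values of 186 and 177 RPKM. Both knockout libraries stood well above both controls, with means of 113 ± 11.3 and 181 ± 6.73 RPKM (SD, n = 2), a log2 difference of 0.69 ± 0.14 (standard error, limma) and an adjusted p of 0.162. This was the smallest p and the largest log2 fold change among the members, and its ratio of means, 1.61-fold, was the largest among the 43 proteasome genes. Psmb2, another structural beta subunit (chromosome 4, 126677630 to 126709714), had 223 and 217 RPKM in the knockout libraries, against 157 and 144 RPKM in the controls, a log2 difference of 0.54 ± 0.14 (standard error, limma) and an adjusted p of 0.177. Psmb6, the subunit with the caspase-like site (chromosome 11, 70525367 to 70527858), had 140.1 and 129.8 RPKM in the controls and 182 and 199 RPKM in the knockouts, a log2 difference of 0.49 ± 0.14 (standard error, limma) and an adjusted p of 0.194. In both genes the lowest knockout value exceeded the highest control value.

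The other catalytic subunits differed less. Psmb7, with the trypsin-like site, had a log2 fold change of 0.36 and Psmb5, with the chymotrypsin-like site that bortezomib inhibits, had control values of 74.6 and 79.2 RPKM and knockout values of 86.6 and 89.8 RPKM, a log2 difference of 0.20 (limma adjusted p 0.469). Exons of Psmb7 overlap those of Nek6 on the opposite strand, and the sources used here do not say whether counting used strand, so reads of the pair cannot be told apart. Psmb1 had a log2 fold change of 0.25. Psmb3 was the beta gene whose groups overlapped, at 48.0 and 56.8 RPKM in the knockout libraries, against 48.8 and 47.8 RPKM in the controls. The beta ring thus ran from 0.11 for Psmb3 to 0.69 for Psmb4. Its median was 0.24 without control 2 or knockout 1, 0.51 without control 1, 0.43 without knockout 2 and 0.12 when libraries were scaled by the listed reads.

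The promoters of Psmb5, Psmb6 and Psmb4 are shown because these beta genes hold, or lack, a sequence by which proteasome genes are known to be induced together. When proteasomes are inhibited, the factor NRF1 (Nfe2l1) binds antioxidant response elements at many proteasome genes. Each line gives the 250 bases before the RefSeq gene start on GRCm38.p6, 5′ to 3′ along the gene, with capitals for a match to the element's core TGACNNNGC, searched on both strands.
Psmb5, chr14:54617996-54618245, minus strand: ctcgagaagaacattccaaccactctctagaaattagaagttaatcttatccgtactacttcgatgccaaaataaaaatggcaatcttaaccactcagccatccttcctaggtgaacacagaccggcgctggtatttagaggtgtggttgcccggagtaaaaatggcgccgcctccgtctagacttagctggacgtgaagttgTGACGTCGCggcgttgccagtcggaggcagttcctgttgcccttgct
Psmb6, chr11:70525107-70525356, plus strand: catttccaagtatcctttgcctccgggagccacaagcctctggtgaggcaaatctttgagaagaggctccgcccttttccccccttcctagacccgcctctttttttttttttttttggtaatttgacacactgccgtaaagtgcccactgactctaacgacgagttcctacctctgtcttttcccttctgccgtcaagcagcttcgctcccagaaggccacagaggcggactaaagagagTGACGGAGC
Psmb4, chr3:94886959-94887208, minus strand: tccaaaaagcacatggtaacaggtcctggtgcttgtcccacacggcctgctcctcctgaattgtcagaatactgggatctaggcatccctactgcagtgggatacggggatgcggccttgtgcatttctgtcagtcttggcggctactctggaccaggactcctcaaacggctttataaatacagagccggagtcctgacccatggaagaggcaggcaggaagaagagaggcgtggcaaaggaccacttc
The match in Psmb5 spans bases 47 to 39 before the start and that in Psmb6 bases 9 to 1, and Psmb4, the gene with the smallest p, had none in this window. RefSeq promoters were found for 37 of the 44 members. The core was present in 5 of these 37 genes (13.5%): Psmb5, Psmb6, Psmc6, Psmd9 and Psmd12. It was present in 14.0% of the 9271 listed genes with a promoter and in 11.5% of all 27025 genes with one. The NF-Y box CCAAT, on both strands, was present in 13 of 37 members (35.1%) and in 40.7% of the listed genes. The median log2 fold change was 0.20 for the 5 members with TGACNNNGC and 0.18 for the 32 without it, and it was 0.24 for the 13 with CCAAT and 0.15 for those without it.

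The alpha ring was also on the positive side throughout, at a median of 0.24 over 7 genes, of which 5 had groups that did not overlap and 1 an unadjusted p under 0.05. The group's median level lay at 50 to 100 RPKM, where 78.1% of all genes were positive. In that range 51.7% had both knockout values above both controls and 26.3% were higher at an unadjusted p under 0.05. Psma7, an alpha subunit (chromosome 2, 180036373 to 180042433), had 47.3 and 46.3 RPKM in the controls and 60.0 and 63.0 RPKM in the knockouts. The replicates lay within 3 RPKM of each other, and the log2 difference between groups was 0.39 ± 0.13 (standard error, limma) and an adjusted p of 0.225. Psma1 had control values of 69.2 and 60.5 RPKM and knockout values of 80.6 and 79.2 RPKM, a log2 fold change of 0.30. Psma6 had 137 and 132 RPKM in the knockout libraries, against 115 and 113 RPKM in the controls, a log2 fold change of 0.24. In all of these the knockout libraries were the higher ones without overlap. Psma2, the most abundant alpha gene, had 148 and 133 RPKM in the controls and 186 and 153 RPKM in the knockouts, with knockout 2 only slightly above control 1. The remaining 3 ran from 0.01 for Psma4, whose groups overlapped, to 0.20 for Psma3. Without single libraries the group median stayed between 0.17 and 0.31, and scaled by the listed reads it was 0.00407.

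The base of the regulatory particle showed smaller differences. The 6 ATPases, which form the unfolding ring, had a median log2 fold change of 0.11, all 6 were positive, and in 2 of them the groups did not overlap. Of all genes at 50 to 100 RPKM, the range of the group's median level, 78.1% were positive. There 51.7% had both knockout values above both controls. Psmc4 had control values of 73.8 and 71.1 RPKM and knockout values of 95.0 and 80.2 RPKM, a log2 difference of 0.27 ± 0.15 (standard error, limma) and an adjusted p of 0.394. Psmc2 had 35.9 and 26.4 RPKM in the knockout libraries, against 27.5 and 24.6 RPKM in the controls, so knockout 1 alone stood high. Psmc5 had 115 and 107 RPKM in the controls and 133 and 111 RPKM in the knockouts and Psmc6, the most abundant ATPase gene, had control values of 149.6 and 123 RPKM and knockout values of 153 and 135 RPKM. In both the knockout range overlapped the control range, and their log2 fold changes were 0.13 and 0.08. Psmc1 and Psmc3 had log2 fold changes of 0.06 and 0.02, and exons of Psmc3 overlap those of Slc39a13 on the opposite strand. The ATPase median rested on single libraries: it was 0.21 without control 1, 0.01 without knockout 1 and 0.22 without knockout 2, and it turned to -0.13 when libraries were scaled by the listed reads.

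The other 3 base genes went in both directions. Psmd4, a receptor for ubiquitin chains, had 134 and 123 RPKM in the knockout libraries, against 106 and 98.8 RPKM in the controls, a log2 fold change of 0.32 (limma adjusted p 0.290). The scaffold genes did not share this. Psmd1 had 27.9 and 28.4 RPKM in the controls and 26.7 and 23.4 RPKM in the knockouts, with both knockout values below both control values and a log2 fold change of -0.17. Psmd2 had control values of 73.6 and 72.4 RPKM and knockout values of 79.2 and 60.4 RPKM, so the controls lay between the knockout libraries. The median of the 3 genes was that of Psmd2, -0.08, and it was 0.12 without knockout 2, -0.26 without knockout 1 and -0.31 when scaled by the listed reads.

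The lid had a median log2 fold change of 0.14 over 8 genes, 5 of them positive, with groups that did not overlap in 3 and an unadjusted p under 0.05 in 2. Its median level also lay at 50 to 100 RPKM, where 78.1% of all genes were positive. In that range 51.7% had both knockout values above both controls and 26.3% were higher at an unadjusted p under 0.05. Psmd8, a lid subunit and the most abundant of all members (chromosome 7, 29174188 to 29180701), had 287 and 264 RPKM in the knockout libraries, against 221 and 189 RPKM in the controls. Its means were 205 ± 22.7 and 276 ± 15.6 RPKM (SD, n = 2), a log2 difference of 0.43 ± 0.15 (standard error, limma) and an adjusted p of 0.239. Psmd12, a scaffold of the lid, had 77.6 and 73.0 RPKM in the controls and 96.9 and 96.6 RPKM in the knockouts, a log2 difference of 0.36 ± 0.13 (standard error, limma) and an adjusted p of 0.241. The 2 knockout libraries were nearly equal there and above both controls. Psmd11, whose level is known to be raised in embryonic stem cells, had control values of 52.2 and 38.8 RPKM and knockout values of 61.1 and 51.5 RPKM, with an overlap between control 1 and knockout 2. Psmd14, the enzyme that removes ubiquitin, had 38.2 and 36.3 RPKM in the knockout libraries, against 34.4 and 32.1 RPKM in the controls, a log2 fold change of 0.16. Psmd13 had 26.3 and 28.2 RPKM in the controls and 27.4 and 25.9 RPKM in the knockouts, a log2 fold change of -0.03, and its exons overlap those of Sirt3 on the opposite strand. Psmd3, Psmd6 and Psmd7 had log2 fold changes of -0.02, -0.0046 and 0.11 with overlapping groups. The lid median was 0.07 without control 2, 0.04 without knockout 1, 0.21 without control 1 and 0.27 without knockout 2, and it was -0.10 when scaled by the listed reads.

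**Figure D2:**
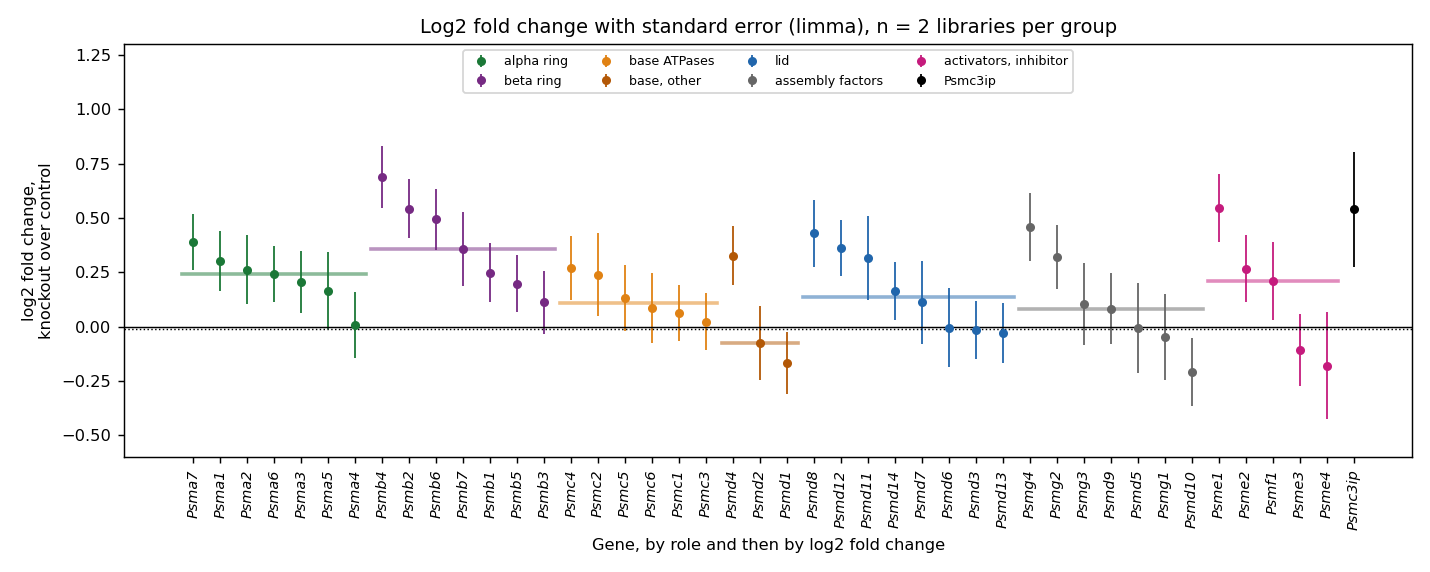
Log2 fold change of each gene, knockout over control, with its standard error from limma; thick bars are group medians and the dotted line is the median of all genes (-0.01). All points of the alpha ring, beta ring and base ATPases lie at or above 0, with group medians of 0.24, 0.36 and 0.11, and the other groups lie on both sides.

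The 7 assembly factors had a median log2 fold change of 0.08, with 4 positive and 3 negative. Of all genes at 5 to 20 RPKM, the range of their median level, 48.4% were positive. Psmg1 to Psmg4 encode chaperones that build the core particle. Of these, Psmg4 had control values of 27.6 and 31.2 RPKM and knockout values of 37.3 and 43.8 RPKM, a log2 difference of 0.46 ± 0.15 (standard error, limma) and an adjusted p of 0.228. Psmg2 had 28.8 and 33.8 RPKM in the knockout libraries, against 24.7 and 25.2 RPKM in the controls, a log2 fold change of 0.32 (limma adjusted p 0.326). In both genes the knockout values lay above the control values. Their binding partners Psmg3 and Psmg1 overlapped between groups: Psmg3 had 3.09 and 2.78 RPKM in the controls and 3.59 and 2.82 RPKM in the knockouts, and Psmg1 had control values of 9.75 and 12.5 RPKM and knockout values of 9.57 and 11.9 RPKM. Psmg1 pairs with Psmg2, and Psmg3 with Psmg4, so within each pair the 2 genes had different values. The base chaperones had low levels. Psmd10, also called gankyrin, had 6.83 and 7.09 RPKM in the knockout libraries, against 7.90 and 8.35 RPKM in the controls, the lowest log2 fold change of any member (-0.21), with both knockout libraries below both controls. Psmd9 and Psmd5 had log2 fold changes of 0.08 and -0.01 with overlapping groups. The median of the assembly factors was 0.00136 without control 1 and -0.14 when scaled by the listed reads.

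The activators and the inhibitor had a median log2 fold change of 0.21 over 5 genes, which split by complex. Psme1 and Psme2 encode the interferon-inducible activator of the core, which opens the gate for peptides. Psme1 had 27.3 and 31.5 RPKM in the controls and 39.7 and 46.5 RPKM in the knockouts, a log2 difference of 0.54 ± 0.16 (standard error, limma) and an adjusted p of 0.196. Psme2 had control values of 41.3 and 43.0 RPKM and knockout values of 45.9 and 56.3 RPKM, a log2 fold change of 0.27. The knockout libraries were higher without overlap in both, and exons of Psme1 overlap those of Emc9 on the opposite strand. Psme3, the nuclear activator, had 69.4 and 55.1 RPKM in the knockout libraries, against 70.2 and 63.3 RPKM in the controls, and Psme4, an activator tied to histone degradation, had 10.4 and 10.1 RPKM in the controls and 11.4 and 7.04 RPKM in the knockouts. In both genes knockout 1 lay with the controls or above them and knockout 2 alone was low, and without knockout 2 their log2 fold changes were 0.06 and 0.15. Psmf1, an inhibitor of the core in the test tube, had control values of 3.11 and 3.57 RPKM and knockout values of 3.67 and 4.21 RPKM. The group median was 0.12 without control 1 or without knockout 2 and 0.000127 when scaled by the listed reads. Psmc3ip, the gene that is not a proteasome gene, had 1.68 and 3.11 RPKM in the knockout libraries, against 1.47 and 1.40 RPKM in the controls, with exons that overlap those of Mlx on the opposite strand.

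Ratios within a library do not depend on scaling between libraries, and by this measure some parts of the particle did not keep the same proportions. These ratios were chosen after the gene values were seen. The summed RPKM of the beta ring over that of the base ATPases was 1.54 and 1.51 in control and 1.80 and 1.99 in knockout, with means of 1.53 ± 0.0202 and 1.89 ± 0.135 (SD, n = 2). The beta ring over the alpha ring was 1.35 and 1.32 against 1.47 and 1.58, and over the lid it was 1.22 and 1.25 against 1.32 and 1.48. The alpha ring over the base ATPases was 1.14 and 1.14 against 1.22 and 1.25. The whole core particle over the regulatory particle was 1.01 and 1.02 against 1.09 and 1.18. In all 5 of these chosen ratios both knockout libraries lay above both control libraries, and the same held with geometric means in place of sums. The alpha ring over the lid was not among the 5, and by sums its groups overlapped. Summed RPKM of the alpha ring was 606 against 671 for the lid in control 1 and 572 against 604 in control 2. For knockout 1 the sums were 728 against 809, and for knockout 2 they were 658 against 705. With 2 libraries per group an exact permutation test cannot give a two-sided p below 0.333, so none is reported, and the ratios share genes and libraries.

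**Figure D3:**
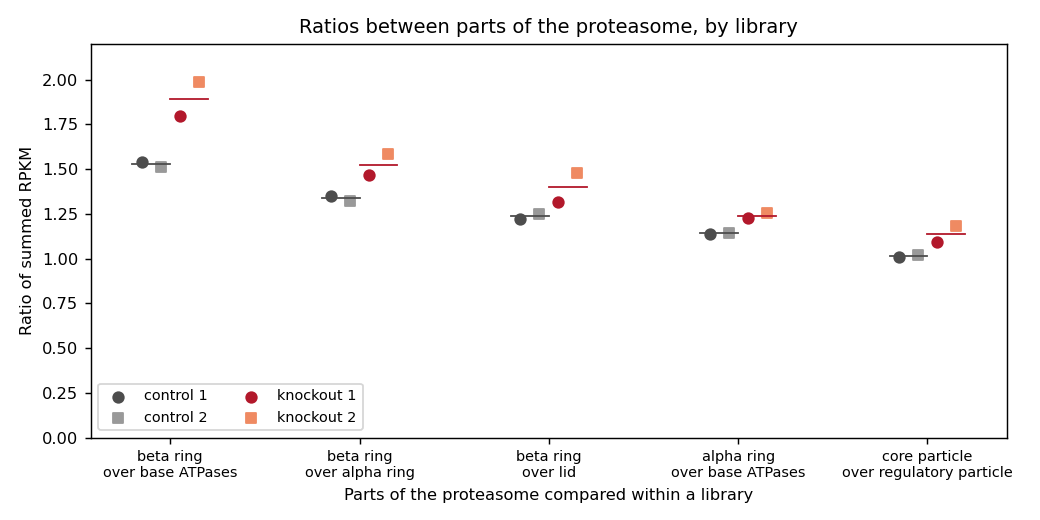
Ratio of summed RPKM between parts of the proteasome in each library (points) with group means (lines), control in grey and knockout in red or orange. Each of the 5 chosen ratios, which do not include the alpha ring over the lid, is higher in both knockout libraries. The widest gap is for the beta ring over the base ATPases (1.53 and 1.89 on average).

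Over the whole table the differences went with the level and length of genes, and the proteasome genes shared this in part. Over all genes, the median log2 fold change went from -0.10 at 1 to 5 RPKM and -0.01 at 5 to 20 RPKM through 0.08 at 20 to 50 RPKM and 0.23 at 50 to 100 RPKM to 0.29 at 100 to 300 RPKM. The proteasome genes did not climb evenly: the members had medians of 0.16 over the 4 at 1 to 5 RPKM, -0.11 over the 4 at 5 to 20 RPKM, 0.20 over the 10 at 20 to 50 RPKM, 0.17 over the 13 at 50 to 100 RPKM and 0.26 over the 13 at 100 to 300 RPKM. Of these last 13 genes 10 had knockout values above all control values (Psmd8, Psmb1, Psmb2 and Psmb6 among them), where 59.4% of all genes at that level did. At 50 to 100 RPKM 6 of 13 members did, beside 51.7% of all genes. At 20 to 50 RPKM 5 of 10 members did, beside 33.2%. The counts were 0 of 4 at 5 to 20 RPKM, beside 24.0%, and 2 of 4 at 1 to 5 RPKM, beside 15.8%. By their medians, the members at 100 to 300 RPKM stood close to other genes of that level. Psmb4, Psmb2, Psmb6, Psmb7, Psmd8 and Psmd4 stood above the median of all genes there. Psmb1, Psma2, Psma3, Psma6, Psmc5, Psmc6 and Psmd7 stood below it. The other beta ring genes, Psmb5 and Psmb3, lay at 50 to 100 RPKM and below the median of all genes in that range. By exon length, the median over all genes was 0.32 under 1000 bases, 0.20 at 1000 to 2000 bases, 0.03 at 2000 to 4000 bases and -0.07 at 4000 to 8000 bases, and that of the members was 0.26, 0.25, 0.16 and 0.04 over 3, 17, 15 and 8 genes. The beta ring genes had a median exon length of 1214 bases and a median level of 147 RPKM, against 1866.5 bases and 86.1 RPKM for the base ATPases and 2734.5 bases and 52.8 RPKM for the lid. The part of level and length in the differences between these groups was not tested.

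**Figure D4:**
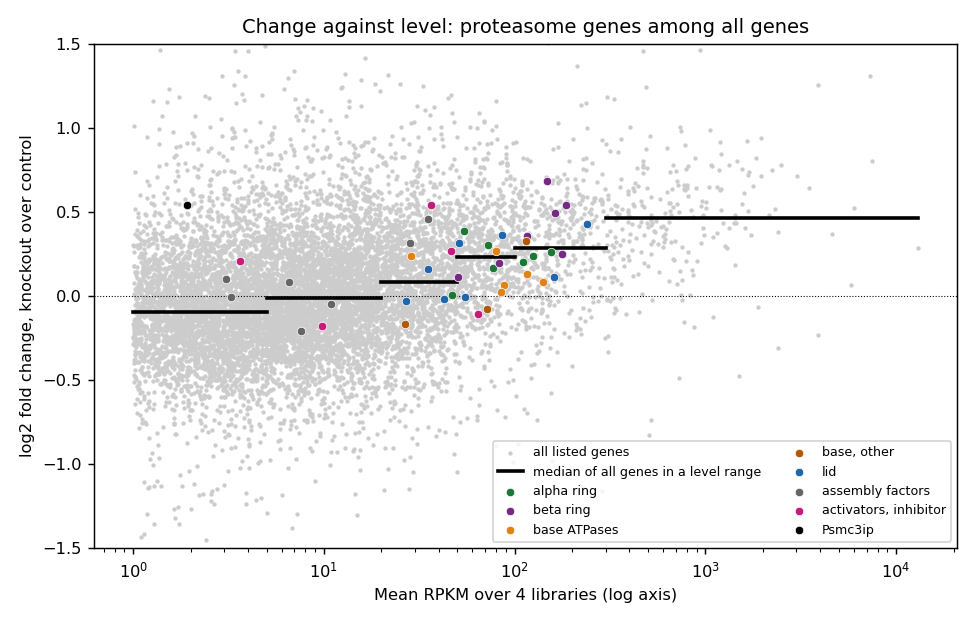
Log2 fold change against mean RPKM (log axis) for all genes of at least 1 RPKM (grey; values beyond the vertical axis are not drawn), with the median of all genes in each level range (black lines) and the proteasome genes by role (colours). Black lines climb from -0.10 at 1 to 5 RPKM to 0.29 at 100 to 300 RPKM, and the proteasome genes lie around them, with Psmb4 the highest at 0.69.

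Levels per exon length differed widely among genes whose products enter the particle in equal copy numbers. Mean RPKM over the 4 libraries spanned 47.0 to 155 in the alpha ring (3.29-fold), 50.3 to 185 in the beta ring (3.68-fold), 28.6 to 140 in the base ATPases (4.90-fold) and 27.0 to 240 in the lid (8.91-fold). The most abundant were Psmd8, Psmb2, Psmb1 and Psmb6, at mean levels of 240.3, 185, 178 and 163 RPKM. The assembly factors, which are not part of the finished particle, had a median level of 7.54 RPKM, with Psmg4 highest and Psmg3 lowest at 3.07 RPKM. The order was kept between libraries: over the 44 genes, which share each library's depth and scaling, the Spearman correlation of levels was 0.993 between the controls, 0.987 between the knockouts and 0.978 to 0.988 across groups. Neighbours in the order were mostly not distinct across libraries. In 4 of 43 neighbouring pairs the lowest value of the higher gene over the 4 libraries exceeded the highest value of the lower gene. These pairs were Psma3 over Psmc1, Psmd1 over Psmg1, Psmd10 over Psmd9 and Psmd9 over Psmf1. That count sets values of different libraries side by side, and within each library Psmd8, for example, stood above Psmb2. The log2 gap between mean levels exceeded the pooled SD within groups in 13 of the 43 pairs. Lengths sum all annotated exons of a gene, so a long exon that these cells do not use lowers its RPKM.

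Genes around the proteasome went in several directions. Of the 3 subunits induced by interferon, which replace the catalytic beta subunits, Psmb8 had 4.48 and 5.15 RPKM in the controls and 9.61 and 7.01 RPKM in the knockouts, a log2 difference of 0.72 ± 0.21 (standard error, limma) and an adjusted p of 0.198. Psmb9 had control values of 1.17 and 2.03 RPKM and knockout values of 2.50 and 1.98 RPKM, and Psmb10 had 12.9 and 19.99 RPKM in the knockout libraries, against 11.2 and 17.6 RPKM in the controls, both with overlapping groups. These levels lay below those of Psmb5, Psmb6 and Psmb7 in every library. Of 15 further subunits, assembly factors and bound enzymes without a Psm symbol 11 were listed, 0 passed the test, 1 had an unadjusted p under 0.05, and the median was 0.02. It was Shfm1, the small lid subunit, with 91.1 and 84.3 RPKM in the controls and 112 and 122 RPKM in the knockouts. Uchl5 and Usp14 encode deubiquitinases of the regulatory particle, and Uchl5 had control values of 11.2 and 11.02 RPKM and knockout values of 13.5 and 15.3 RPKM, whereas Usp14, named after its values were seen, had 18.1 and 18.4 RPKM in the knockout libraries, against 20.5 and 19.2 RPKM in the controls. Txnl1, a thioredoxin bound to the particle, had 104 and 89.5 RPKM in the controls and 124 and 109 RPKM in the knockouts, and Zfand5, an activator of the proteasome, had control values of 270.1 and 254 RPKM and knockout values of 291 and 298 RPKM.

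The genes that supply and regulate its substrates were split as well. Of 11 listed genes of transcriptional control, 0 passed the test, 2 were higher at an unadjusted p under 0.05 and the median was 0.12. Nfe2l1, which encodes NRF1, was named after its values were seen and had 23.3 and 18.7 RPKM in the knockout libraries, against 24.7 and 24.0 RPKM in the controls, a log2 fold change of -0.22, so both knockout values lay below the controls. The small Maf genes, whose products pair with NRF1, included Maff with 187 and 167 RPKM in the controls and 233 and 249.8 RPKM in the knockouts and Mafk with control values of 261 and 257 RPKM and knockout values of 321 and 311 RPKM. Mafg did not share this: it had 28.9 and 25.5 RPKM in the controls and 27.1 and 24.7 RPKM in the knockouts. Its groups overlapped, at a log2 fold change of -0.07, and it was named after its values were seen. Nfyb, a subunit of NF-Y, had 36.1 and 44.1 RPKM in the knockout libraries, against 29.1 and 27.1 RPKM in the controls. Of 6 ubiquitin and activating enzyme genes 0 passed the test and 2 were higher at an unadjusted p under 0.05. Ubb, a polyubiquitin gene, had 1673 and 1308 RPKM in the controls and 2389 and 2465 RPKM in the knockouts, a log2 difference of 0.71 ± 0.20 (standard error, limma) and an adjusted p of 0.194. It was the 1 gene of these 6 with an authors' deposited q-value under 0.05 (0.0169). Rps27a, which makes ubiquitin fused to a ribosomal protein, had 247 and 270.1 RPKM in the knockout libraries, against 210.5 and 182 RPKM in the controls. Uba1, the main activating enzyme, named after its values were seen, went the other way with 68.1 and 63.6 RPKM in the controls and 61.9 and 53.1 RPKM in the knockouts. Of 14 listed genes of the p97 segregase and ubiquitin shuttles, 0 passed the test and 1 had an unadjusted p under 0.05, with a median of 0.01. That was Nploc4, a p97 cofactor, with control values of 18.4 and 17.4 RPKM and knockout values of 14.8 and 11.8 RPKM, a log2 difference of -0.43 ± 0.17 (standard error, limma) and an adjusted p of 0.274. Vcp, which encodes p97, had 106 and 76.7 RPKM in the knockout libraries, against 119.8 and 114 RPKM in the controls, with both knockout libraries below both controls. Ubxn1, another cofactor, had 104 and 102 RPKM in the controls and 121 and 132 RPKM in the knockouts, and Sqstm1, the autophagy receptor for ubiquitin, had control values of 1758 and 1276 RPKM and knockout values of 2072 and 1795 RPKM.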

How the data were processed

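RNA was measured in 2 control and 2 knockout libraries made from 10 ng of total RNA with a full-length template-switching kit, per the labels' protocols. The submitters' processing notes name mm10 (GRCm38), STAR, Trim Galore, edgeR and featureCounts (Subread); versions, the handling of multiply mapped reads, the use of strand and the gene filter are not stated in the sources used here. Several subunits have processed pseudogenes, so such reads could be split. The deposited per-sample values behaved as RPKM computed by the authors: with a tolerance of 0.01 reads, 100% of values times length were whole reads. A q-value for each gene comes from the authors' deposited comparison, whose model is not given. Columns beginning with Ct were matched to control and the others, beginning with Fl, to knockout; the labels do not spell out Fl.

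limma 3.58.1 (R 4.3.3) with a mean-variance trend was fitted to log2(RPKM + 0.5) of all 11603 genes, with genotype as the only term, two-sided tests and Benjamini-Hochberg adjustment at 0.05. Log2 fold changes are on this scale, and values given as fold are ratios of group means in RPKM. The fit was tested on simulated data. No depth interval is given, since the spread between replicates includes counting error. Members and lists were chosen with earlier results of these data known. In each role group the text gives the 3 members with the smallest p, the most abundant member and the one with the smallest p on the opposite side of the group median; all interferon-induced subunits are given, and in the other pathway lists the 3 with the smallest p and the most abundant. One gene that this rule names is not reported here. Other genes were chosen after their values were seen. Figures were drawn with matplotlib 3.10.9.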

Additional observations from a re-analysis of the deposited data

How the results depend on the processing

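No member passed the adjusted threshold under any alternative tried except the fit with the replicate block. Leaving out each library in turn, pseudocounts of 0.1 and 1, a minimum mean of 1 RPKM, another scaling of libraries, limma-voom and the replicate block were tried. Replicate numbers are shared by the groups, but the labels do not say that they mark a pair, and with 2 pairs the correlation of the deviations of same-numbered libraries (0.414 over 10007 genes) does not settle it. With the replicate block 591 genes (5.09%) were called higher and 413 (3.56%) lower, among them 3 members higher: Psmb4, Psmb2 and Psme1, with log2 fold changes of 0.69, 0.54 and 0.54 and limma adjusted p values of 0.0298, 0.0482 and 0.0392. That fit has 1 residual degree of freedom per gene. limma-voom called 3 genes higher and 8 lower, none of them a member. Without single libraries the calls over all genes ran from 0 to 1 higher and were 0 lower each time.

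Scaled by the listed reads, the median log2 fold change was -0.0353 for the members, 0.00407 for the alpha ring, 0.12 for the beta ring, -0.13 for the ATPases, -0.31 for the other base genes, -0.10 for the lid, -0.14 for the assembly factors and 0.000127 for the activators and inhibitor. Psmc5 was then at -0.10 and Psmc6 at -0.15, and the groups did not overlap in 9 members on the higher side and 11 on the lower side. On that scale 26.3% of all genes had a positive log2 fold change. Centred on library medians, Psmd13 was at 0.00147. Without single libraries the median ran from 0.15 to 0.23 for the members, 0.24 to 0.51 for the beta ring, 0.0132 to 0.22 for the ATPases, -0.26 to 0.12 for the other base genes and 0.00136 to 0.12 for the assembly factors. Psmc6 ran from -0.0561 to 0.23, Psmd2 from -0.27 to 0.12, Psmd13 from -0.0789 to 0.0187, Psme3 from -0.27 to 0.0573 and Psme4 from -0.51 to 0.15. Members that did not overlap ran from 26 to 33 on the higher side and from 3 to 10 on the lower side, with fewer libraries to separate. The cause of these changes was not tested. Counts of members without overlap under these alternatives are given without a share over all genes. Of 286 alternative values for the 26 named members, 273 kept their direction and side of the threshold, 10 changed sign and 3 passed the threshold. With 2 libraries per group, the standard errors printed beside the fold changes limit what size of change could be detected.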
